A study of Homo sapiens with 6 samples.

Results

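The genes of glycolysis and of the hypoxia response were examined in a lymphoma cell line, SU-DHL-2, with and without IL-17A. The group holds 40 genes, which were listed by name for their roles in glucose and lactate transport, the glycolytic enzymes, the hypoxia-inducible factors (HIF) and their targets, with no measured value in the rule. The genes were chosen with earlier results of these data known. Probes were assigned to them through the RefSeq accession of each probe. Of the 40 genes, 39 had a probe and 38 had a probe that was detected on at least 3 of the 6 arrays, out of 14747 genes tested and 19740 genes named on the array. ALDOA, an aldolase, had no probe by this rule, and the only probe of CA9, a carbonic anhydrase induced by hypoxia, was not well above background on any array.

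The study examined how cells of the bone marrow and the cytokines IL-6 and IL-17A act on diffuse large B-cell lymphoma (DLBCL), and its arrays compared DLBCL cells with and without IL-17A, a cytokine made mainly by Th17 cells. SU-DHL-2, an established human DLBCL cell line, was cultured for 72 h with IL-17A at 200 pg/ml in 3 samples and without IL-17A in the 3 control samples. Each sample was measured on a 1-colour array. Both groups are the same line in the same medium, so the values describe 1 line at 1 dose and 1 time. The labels do not say whether the samples of a group came from separate cultures, and p-values measure only the spread between these samples.

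Glycolysis splits glucose into pyruvate in the cytosol, and cells that divide fast, lymphoma cells among them, often turn much of this pyruvate into lactate even when oxygen is present. HIF is a pair of proteins, an alpha subunit that is unstable in oxygen and the stable partner ARNT. In oxygen, prolyl hydroxylases such as EGLN1 mark the alpha subunit for removal. When oxygen is low the subunit stays, and the pair binds DNA at a short core motif and raises the transcription of glucose transporters, glycolytic enzymes, VEGFA and its own hydroxylases.

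All values below are log2 signals after quantile normalization unless stated, with the SD over 3 arrays, and differences are IL-17A minus control on the log2 scale. On arrays the signals of different probes cannot be ranked against each other, so each gene was compared only with itself. Between 23570 and 24077 probes were detected per array, no spot was saturated, and all 38 tested members were well above background on all 6 arrays at the probe used. The controls shared a scan, and by inference a slide, with IL-17A replicate 1, while IL-17A replicates 2 and 3 were scanned together on the other slide. Slide and treatment therefore overlap in part, and with slide as a block a difference is that of IL-17A replicate 1 from the controls of its slide. All 7 B cell markers, among them CD79A and PAX5, were above background on all 6 arrays. Of the 4 endothelial markers listed 3 were tested and all 3 were lower with IL-17A at an unadjusted p under 0.05. KDR was not above background on any array, and the summed signal of the list was 253.6 to 259.2 with IL-17A and 278.3 to 321.5 in controls. The summed signal of 6 T and NK cell markers was 197 to 220.5 with IL-17A and 208.2 to 218.4 in controls, but 1 of these markers was higher and 2 were lower at an unadjusted p under 0.05, and 1 of the lower ones kept an adjusted p under 0.05 (limma). Of all tested probes, 17.1% were higher and 14.2% lower at an unadjusted p under 0.05, and 3.17% were lower after adjustment. The part of these markers in the results was not tested. In RNA of a whole culture, a change in the share of some cells and a change in RNA per cell cannot be told apart.

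Most of the members were slightly higher with IL-17A, by less than 1.5-fold. Of the 38 tested members, 15 were higher with IL-17A at an unadjusted p under 0.05 (limma), or 39.5%, against 17.1% of all tested probes, and none was lower, against 14.2% (31.3% in either direction). By the methods' t-test 17 members were higher and 1, BNIP3, was lower. After Benjamini-Hochberg adjustment over all 23945 tested probes, 6 members kept an adjusted p under 0.05 by limma, all of them higher, or 15.8%, against 4.43% of all tested probes higher, 3.17% lower and 7.59% in all. They were the glucose transporters SLC2A1 and SLC2A3, the oxygen sensor EGLN1, and the HIF targets VEGFA, ADM and ANKRD37.

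None of the 38 members passed both a fold change of 1.5 and p under 0.05, the study's fold filter, by limma or by the methods' t-test. Of all tested probes 2.18% passed by limma (1.01% higher and 1.17% lower). The study's statistics section also names a false discovery rate under 0.05. The highest fold change of a member was 1.35, and the 95% confidence interval lay within 1.5-fold in either direction for 37 of 38 members, all but EPAS1. The median difference of the members was 0.10, with a range of -0.15 to 0.44, beside a median of 0.01 over all tested probes. By direction, 29 members were higher and 9 lower, where 51.6% of all tested probes were higher. The groups did not overlap for 21 members (55.3%), 19 higher and 2 lower, against 39.0% of all tested probes, 21.0% higher and 18.0% lower.

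These counts moved with the scaling and with single arrays. When each array was scaled to its 75th percentile, 11 members were higher and 2 were lower, TPI1 and PFKFB3, against 13.0% and 18.2% of all tested probes, and the median difference of the members was 0.06. Under this scaling HK2, GPI, PGK1, PDHA1 and ARNT no longer passed, with differences of 0.11, 0.02, 0.03, 0.09 and 0.14. With slide as a block, 13 members were higher and 1, BNIP3, was lower, against 12.2% and 11.1% of all tested probes, and the median was 0.14. No member kept an adjusted p under 0.05 with slide as a block, where 0.2% of all tested probes did. None did when any 1 array other than control replicate 3 was left out, against 0.00835% to 0.288% of all tested probes. Without control replicate 3 there were 2, against 4.11%. The 6 members had an unadjusted p under 0.05 in all 108 of their values under the other settings tried, and ENO2 and PFKFB4 also passed in every one of theirs. These settings reuse the arrays by which the members were picked, so they are no independent support. At an unadjusted p under 0.05, PGK1 kept its call whichever array was left out. HK2 and KDM3A lost the call without control replicate 2, and ALDOC without IL-17A replicate 1 or 3. GPI lost it without IL-17A replicate 2 or control replicate 1 or 2, and PDHA1 also without IL-17A replicate 1. ARNT lost it without any 1 array other than IL-17A replicate 2.

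**Figure D1:**
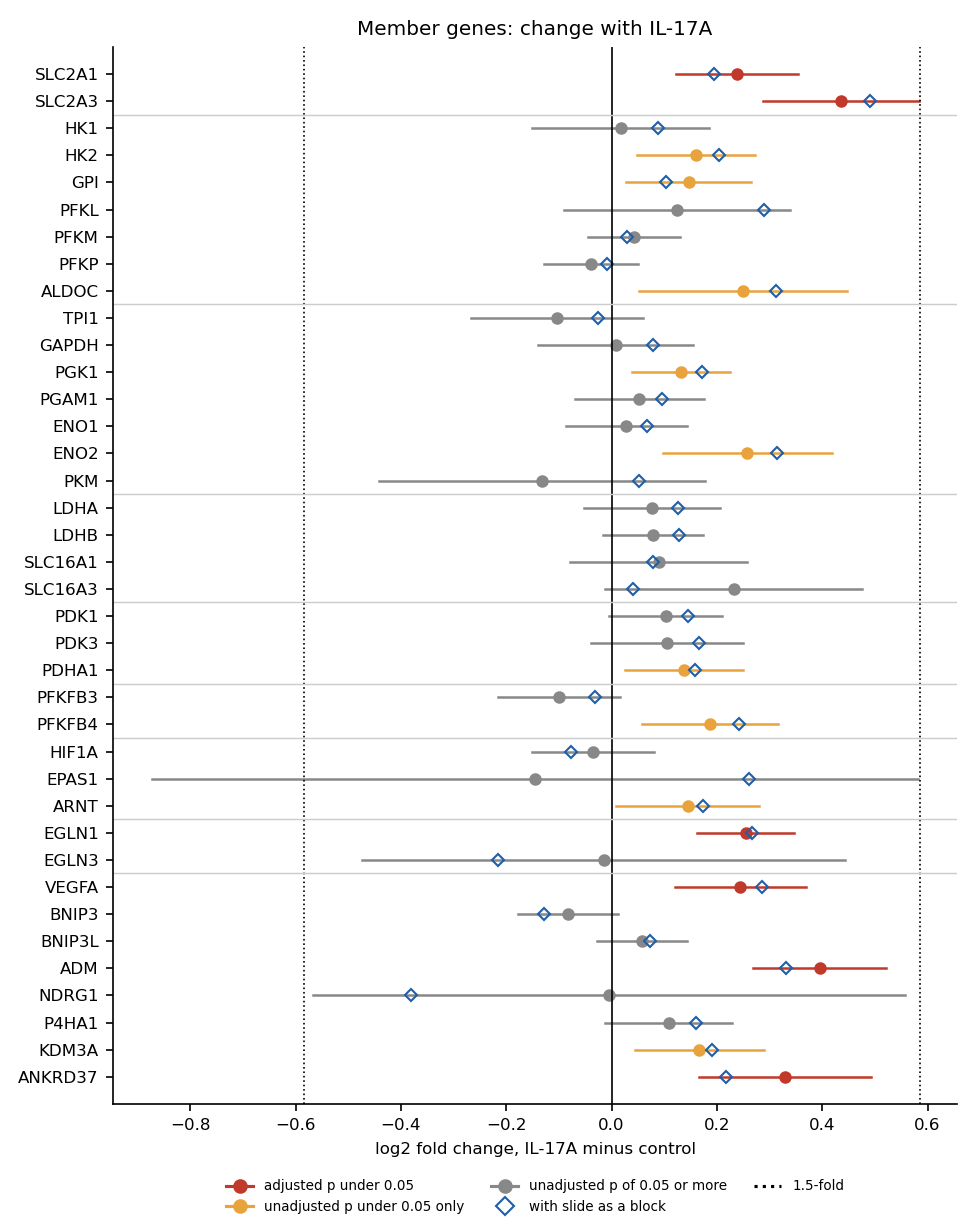
Log2 fold change (IL-17A minus control) of the 38 tested member genes, ordered by role from glucose transport to HIF targets. Filled circles with bars give the limma estimate with its 95% confidence interval, coloured by the p-value, open diamonds the estimate with slide as a block, and dotted lines a 1.5-fold change; 29 circles lie above 0, and only the interval of EPAS1 reaches beyond 1.5-fold.

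Both glucose transporters among the members were higher with IL-17A. Among those of the related lists, SLC2A8 differed by -0.17 (limma unadjusted p = 0.011, adjusted p = 0.0751), SLC2A6 by -0.01 and SLC2A4 by 0.008. SLC2A1 encodes GLUT1, which carries glucose into most dividing cells. Its signal was 12.52, 12.62 and 12.55 on the IL-17A arrays and 12.28, 12.31 and 12.37 on the controls. Every IL-17A array was above every control. The means were 12.56 ± 0.05 and 12.32 ± 0.05 (SD, n = 3 each), a difference of 0.24 (SE 0.05, limma adjusted p = 0.0447), or 1.18-fold.

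SLC2A3 encodes GLUT3, a transporter with a high affinity for glucose, and its relative SLC2A14 has a nearly identical sequence, so that a probe may bind RNA of both. Its signal was 5.12, 5.07 and 4.998 with IL-17A and 4.70, 4.64 and 4.54 in controls. The groups did not overlap, and the difference of 0.44 (SE 0.06, limma adjusted p = 0.0326) was the highest of any member. The size depended on the background correction, since normexp, a background correction that here adds an offset of 50 to every signal and so shrinks the log2 differences of dim probes, gave 0.12. A dimmer probe of the gene gave a difference of 0.37 with an unadjusted p of 0.122 (limma), and was above background on 2 of the 3 controls.

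**Figure D2:**
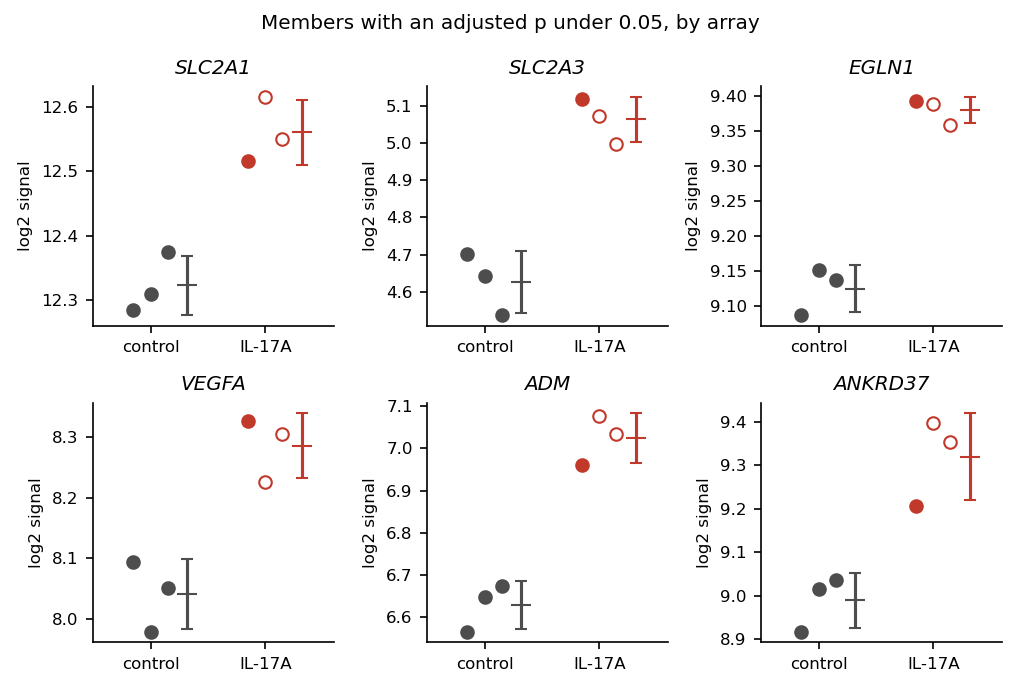
Log2 signal (y axis, its own range in each panel and not starting at 0) on each of the 6 arrays for the 6 members with an adjusted p under 0.05. Filled points are arrays of the slide that held IL-17A replicate 1 and the controls, open points IL-17A replicates 2 and 3, and bars show mean ± SD of 3 arrays; in each panel all IL-17A points lie above all control points.

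Of the genes for the steps from glucose to the split sugar phosphates, 3 of 7 (42.9%) were higher at an unadjusted p under 0.05. The share of all tested probes was 17.1%. None of the 7 kept an adjusted p under 0.05, against 7.59% of all tested probes. The counts by step rest on few genes each and are not read as results about a step. HK2, the inducible hexokinase that traps glucose in the cell, was 12.92 ± 0.06 with IL-17A and 12.76 ± 0.02 in controls, with no overlap. Its difference of 0.16 had an unadjusted p of 0.013 and an adjusted p of 0.0806 (limma). A dim second HK2 probe read 4.35, 4.32 and 4.35 with IL-17A against 3.85, 3.78 and 3.81 in controls, a difference of 0.53 (SE 0.04, adjusted p = 0.0180, limma). Both probes of HK2 were thus higher, by 1.12-fold and 1.45-fold, the dim one by 0.09 on the log2 scale with normexp. GPI, which turns glucose 6-phosphate into fructose 6-phosphate, differed by 0.15. ALDOC, an aldolase best known from brain, differed by 0.25. The other hexokinase, HK1, differed by 0.02, and the 3 phosphofructokinase subunits PFKL, PFKM and PFKP by 0.12, 0.04 and -0.04, all without passing the test. With slide as a block PFKL differed by 0.29.

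Of the triose steps, 2 of 7 genes (28.6%) were higher at an unadjusted p under 0.05, against 17.1% of all tested probes. ENO2, the enolase known from neurons, read 7.53, 7.39 and 7.50 with IL-17A and 7.27, 7.27 and 7.11 in controls. These values did not overlap, and the difference of 0.26 (SE 0.06) had an adjusted p of 0.0661 (limma). PGK1, which makes the first ATP of the pathway, differed by 0.13 at an unadjusted p of 0.014. ENO1, the common enolase, differed by 0.03 and PGAM1, a phosphoglycerate mutase, by 0.05.

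GAPDH, an enzyme of the same stretch that is often used as a reference gene, read 14.69, 14.55 and 14.62 with IL-17A and 14.69, 14.61 and 14.54 in controls, a difference of 0.01 with a 95% confidence interval of -0.14 to 0.16. The groups overlapped. TPI1, the triose phosphate isomerase, was 13.11 ± 0.08 against 13.22 ± 0.08, a difference of -0.10 (SE 0.07, limma adjusted p = 0.328), and under the 75th percentile scaling it differed by -0.16 at an unadjusted p of 0.022. PKM, the pyruvate kinase of dividing cells, was 12.47 ± 0.20 against 12.61 ± 0.14, a difference of -0.13 (SE 0.12, adjusted p = 0.502, limma), with overlapping groups. Several of these enzymes have pseudogenes or near-identical copies whose RNA a probe may also bind.

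None of the 4 lactate genes passed the test, where 31.3% of all tested probes did. LDHA, the lactate dehydrogenase subunit that favours lactate, differed by 0.08 at its brighter probe and 0.11 at the other. LDHB, the subunit known from heart, differed by 0.08 at one probe and -0.10 at the other, neither past the test. With slide as a block the LDHB probes differed by 0.13 and -0.22, so they moved further apart, and the dimmer LDHA probe differed by 0.26. The lactate exporter SLC16A3 (MCT4), a known hypoxia target, read 6.34, 6.58 and 6.68 with IL-17A and 6.22, 6.38 and 6.32 in controls. These groups overlapped, and its difference of 0.23 had an unadjusted p of 0.059 by limma and was 0.04 with slide as a block. SLC16A1 (MCT1), which carries lactate either way, differed by 0.09.

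At the entry of pyruvate into mitochondria, 1 of 3 genes (33.3%) was higher at an unadjusted p under 0.05, against 17.1% of all tested probes. The gene was PDHA1, a subunit of pyruvate dehydrogenase, with a difference of 0.14. PDK1 and PDK3, kinases that switch this enzyme off, differed by 0.10 and 0.11 and did not pass. Of the enzymes that set fructose 2,6-bisphosphate, the activator of phosphofructokinase, PFKFB4 read 10.83, 10.68 and 10.81 with IL-17A and 10.60, 10.60 and 10.55 in controls. The groups were separate, and the difference of 0.19 had an adjusted p of 0.0789 (limma). PFKFB3 gave opposite signs at its probes. The brighter probe was lower in all 3 IL-17A arrays, at 10.02 ± 0.06 against 10.12 ± 0.03, a difference of -0.10 (SE 0.05, adjusted p = 0.204), and the dimmer probe was higher by 0.31 at an unadjusted p of 0.016 by limma, and by 0.11 with normexp. The probes of 7 of the 10 members with several tested probes shared 1 direction, the others being HIF1A, LDHB and PFKFB3. Among all tested probes with a mean log2 signal under 6, where the dim probes of SLC2A3, HK2, VEGFA and PFKFB3 lie, the median difference was 0.01.

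**Figure D3:**
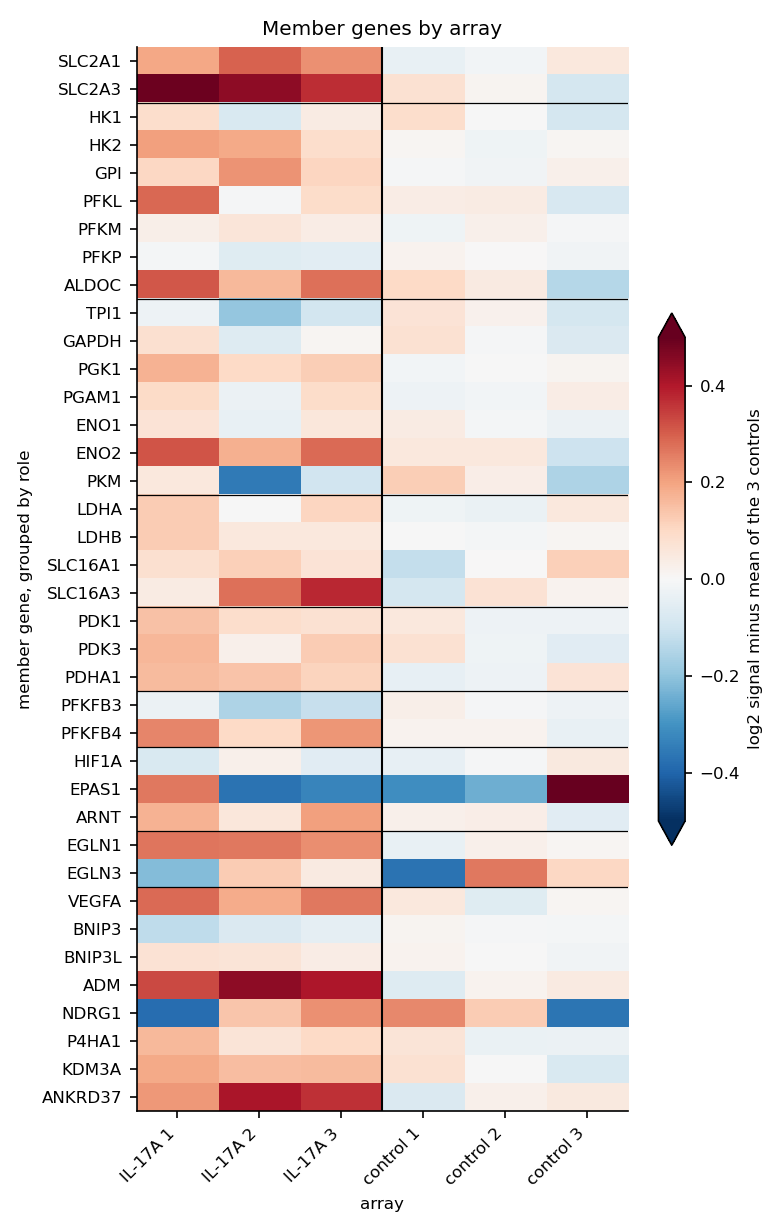
Log2 signal of each tested member on each array minus the mean of its 3 controls, with genes grouped by role (y axis) and arrays on the x axis, the colour ending at 0.5 in either direction. The median over members was 0.14, 0.08 and 0.10 on IL-17A arrays 1, 2 and 3 and 0.02, -0.00074 and -0.01 on the controls.

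The upstream sequence of EGLN1, ADM and ANKRD37, which are among the 6 members with an adjusted p under 0.05, is shown because it holds the HIF core motif. The members include genes listed as HIF targets and these sequences were picked for the motif, so that finding it there is not independent of the choice. The 250 bases before the gene start were taken from RefSeq (GRCh38.p14), which matched 35 of the 40 members; SLC2A3, SLC16A1, VEGFA, BNIP3L and NDRG1 were not matched. ACGTG and GCGTG were searched on both strands, and capitals mark the matches. In EGLN1 (chr1:231422288-231422537, minus strand) ACGTG lies 13 to 9 bases before the start. In ADM (chr11:10304823-10305072, plus strand) GCGTG lies 101 to 97 bases before it. In ANKRD37 (chr4:185396591-185396840, plus strand) CACGTG, which holds ACGTG on both strands, lies 162 to 157 bases before the start, and a further ACGTG 143 to 139 bases before it.
EGLN1: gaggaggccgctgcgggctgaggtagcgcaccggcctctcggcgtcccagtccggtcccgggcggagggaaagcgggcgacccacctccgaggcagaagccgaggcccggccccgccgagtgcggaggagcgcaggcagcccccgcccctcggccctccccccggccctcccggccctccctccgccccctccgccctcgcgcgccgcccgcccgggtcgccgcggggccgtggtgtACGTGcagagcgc
ADM: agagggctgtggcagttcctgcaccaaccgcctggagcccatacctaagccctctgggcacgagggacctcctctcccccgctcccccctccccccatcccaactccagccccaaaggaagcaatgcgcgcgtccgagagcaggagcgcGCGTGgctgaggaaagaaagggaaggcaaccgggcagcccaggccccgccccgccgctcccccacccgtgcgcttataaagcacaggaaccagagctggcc
ANKRD37: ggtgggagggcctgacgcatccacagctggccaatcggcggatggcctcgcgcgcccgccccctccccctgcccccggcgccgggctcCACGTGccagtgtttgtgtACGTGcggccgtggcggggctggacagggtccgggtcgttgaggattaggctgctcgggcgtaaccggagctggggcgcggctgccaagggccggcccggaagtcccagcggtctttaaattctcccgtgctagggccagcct

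At least 1 of the motifs was found in 23 of the 35 members (65.7%) and in 43.2% of 35116 promoters of the same length. Each member was counted by 1 promoter and the 35116 by every entry, and base composition was not matched. The part of base composition in these shares was not tested. ACGTG was in 14 members and 18.5% of all promoters, GCGTG in 14 members and 32.2%, and CACGTG in 5 members and 6.34%. Among matched members with an unadjusted p under 0.05, 11 of 13 held a motif, and among the others 12 of 22. These others include ALDOA and CA9, which were not tested and which both held a motif. Split by an adjusted p under 0.05, the counts were 3 of 4 and 20 of 31, again with ALDOA and CA9 among the others. SLC2A1 held none in this window. A match is a stretch of letters and not a measured binding site.

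**Figure D4:**
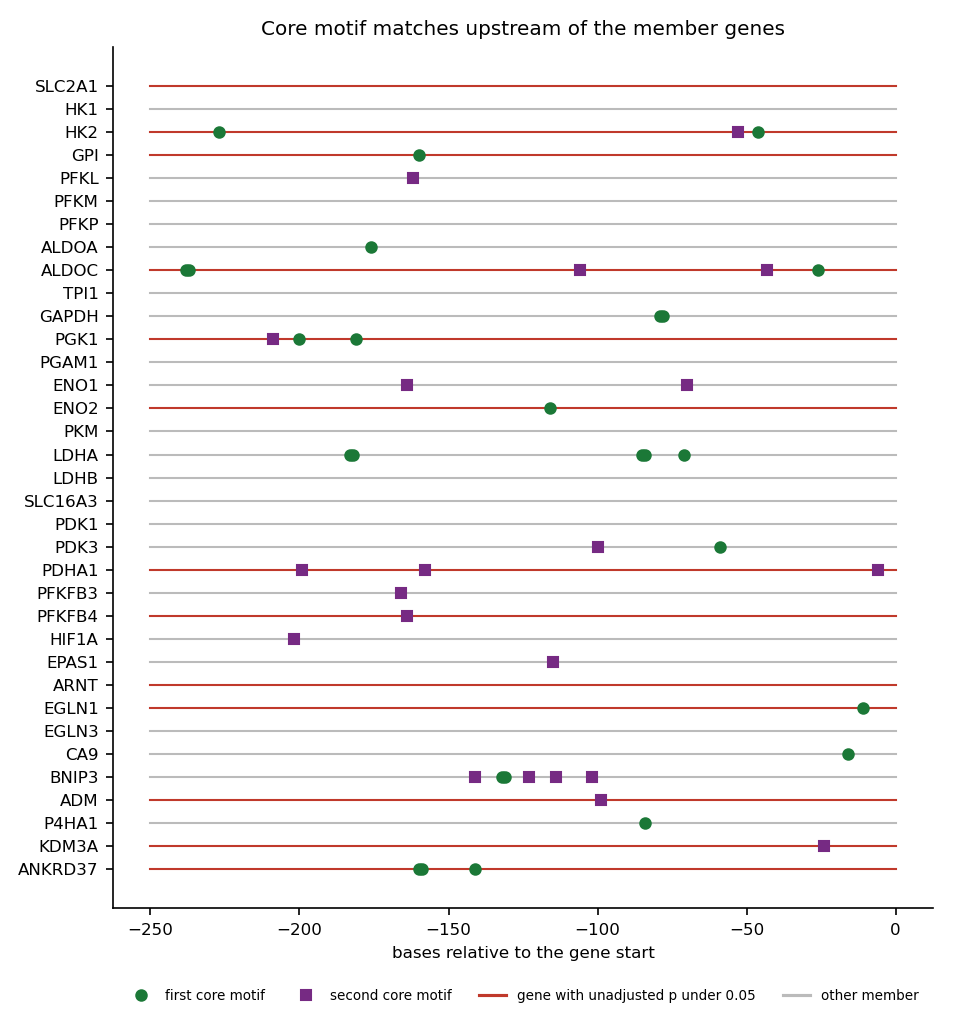
Matches of ACGTG (circles, first core motif) and GCGTG (squares, second core motif), on either strand, in the 250 bases before the gene start (x axis) of the 35 matched member genes (y axis). Red lines are genes with an unadjusted p under 0.05 and grey lines the other members, and lines without a symbol hold neither motif; 23 lines carry at least 1 symbol.

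Of the HIF subunits, 1 of 3 (33.3%) was higher at an unadjusted p under 0.05, against 17.1% of all tested probes. HIF1A, the main alpha subunit, was 10.51 ± 0.05 with IL-17A and 10.55 ± 0.04 in controls, a difference of -0.04 with an interval of -0.15 to 0.08, and its second probe differed by 0.004. Its protein is controlled mainly by breakdown, which arrays do not measure. ARNT differed by 0.14 with an unadjusted p of 0.041, and by 0.08 with normexp. EPAS1, which encodes HIF-2 alpha, read 6.66, 6.03 and 6.07 with IL-17A and 6.09, 6.15 and 6.96 in controls. IL-17A replicate 1 and control replicate 3 stood above the other arrays, and the difference of -0.15 (SE 0.29, limma adjusted p = 0.765) had an interval of -0.87 to 0.58. Without control replicate 3 the EPAS1 difference was 0.13.

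Of the 2 oxygen sensors 1 passed the test, where 31.3% of all tested probes did. EGLN1 (PHD2), the main hydroxylase of HIF1A and itself a HIF target, read 9.39, 9.39 and 9.36 with IL-17A and 9.09, 9.15 and 9.14 in controls. The arrays within each group were close and the groups apart, with a difference of 0.25 (SE 0.04, limma adjusted p = 0.0327), or 1.19-fold. EGLN3 (PHD3), often the most strongly induced of the family, was dim and scattered, at 3.90 to 4.24 with IL-17A and 3.75 to 4.38 in controls. Its difference of -0.02 (-0.47 to 0.44) changed sign when IL-17A replicate 1 (0.09), control replicate 2 (0.12) or control replicate 3 (0.04) was left out.

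Of the 8 tested HIF targets outside metabolism, 4 were higher at an unadjusted p under 0.05 and 3 kept an adjusted p under 0.05. VEGFA, the main growth factor for blood vessels, read 8.33, 8.23 and 8.30 with IL-17A and 8.09, 7.98 and 8.05 in controls. All IL-17A arrays were above all controls, and the difference was 0.24 (SE 0.05, adjusted p = 0.0475, limma), or 1.18-fold. A dimmer VEGFA probe was higher by 0.47 (adjusted p = 0.0311, limma), at 4.94 against 4.47, and by 0.10 with normexp.

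ADM, which encodes adrenomedullin, a peptide that widens vessels, and whose upstream sequence above holds GCGTG, read 6.96, 7.08 and 7.03 with IL-17A and 6.57, 6.65 and 6.67 in controls. Its difference of 0.39 (SE 0.05, limma adjusted p = 0.0319), or 1.31-fold, was the second highest among members, and normexp gave 0.22. ANKRD37, an ankyrin repeat protein induced by HIF, read 9.21, 9.40 and 9.35 with IL-17A and 8.92, 9.01 and 9.04 in controls. IL-17A replicate 1 was the lowest of its group but still above every control, and the difference was 0.33 (SE 0.07, limma adjusted p = 0.0459), or 1.26-fold; with slide as a block it was 0.22.

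KDM3A, a histone demethylase, differed by 0.17 at an unadjusted p of 0.017, and P4HA1, a collagen hydroxylase, by 0.11 without passing. BNIP3, which takes part in the removal of mitochondria, was lower in all 3 IL-17A arrays, at 7.77 ± 0.04 against 7.86 ± 0.01. Its difference of -0.08 (SE 0.04, adjusted p = 0.207) did not pass in limma, passed at an unadjusted p of 0.030 in the methods' t-test, and was 0.01 with normexp. Its relative BNIP3L differed by 0.06 at its brighter probe and by 0.18 at an unadjusted p of 0.0066 (limma) at the other. NDRG1, a stress gene, was dim and scattered, at 3.89 to 4.497 with IL-17A and 3.90 to 4.51 in controls, and its difference of -0.005 had an interval of -0.57 to 0.56.

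Genes of the same pathways that are not members were described from lists written from general knowledge. These lists were chosen with earlier results of these data known, so their shares are no independent support. Of 39 other HIF targets 30 were tested, 16 were higher and 1 lower at an unadjusted p under 0.05 (53.3% and 3.33%, against 17.1% and 14.2% of all tested probes), and the median difference was 0.15. After adjustment 9 were higher by limma, or 30.0%, against 4.43% of all tested probes. With slide as a block 14 were higher (46.7%) and 2 lower (6.67%) at an unadjusted p under 0.05, against 12.2% and 11.1% of all tested probes. None of the list kept an adjusted p under 0.05 in that setting, where 0.2% of all tested probes did. The 9 included INSIG2, which holds back sterol synthesis, by 0.43 (adjusted p = 0.0252), BHLHE40, a transcriptional repressor, by 0.38 (adjusted p = 0.0370, and 0.24 with normexp), and HILPDA, which acts on lipid droplets, by 0.30 (adjusted p = 0.0327). Of this list 2 genes passed both thresholds, and 1 of them is described. SLC6A8, the creatine transporter, read 2.49, 2.60 and 2.87 with IL-17A, near the background, and was not well above background on any control. Set against the lowest signals that counted as above background, its lower bound was 1.59-fold. SLC6A8 passed the filter on detection only through the IL-17A arrays, and its p rests on control signals below background. Neither this p nor the bound is given as support. The gene is nevertheless counted among the 16, the 9 and the 14 with slide as a block, and in their shares. With normexp SLC6A8 differed by 0.048 and did not pass the fold threshold.

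Among the regulators of HIF, more genes were lower than higher. Of 17 genes for oxygen sensing and HIF regulation, 1 was higher (5.88%) and 7 were lower (41.2%) at an unadjusted p under 0.05. Of all tested probes, 17.1% were higher and 14.2% lower. The median difference of the list was -0.12, and none of its genes kept an adjusted p under 0.05, against 7.59% of all tested probes. The 2 with the lowest p were CUL2 and ELOB, parts of the ligase that removes HIF alpha subunits, with differences of -0.16 and -0.22 (adjusted p = 0.0509 and 0.0510, limma), CUL2 by -0.095 with normexp. Of 12 genes for pyruvate dehydrogenase, its carrier and its regulators, none was higher and 4 were lower (33.3%), with a median of -0.09. They were PC (pyruvate carboxylase, -0.42), DLAT (-0.16), PDK2 (-0.21) and DLD (-0.15), and none kept an adjusted p under 0.05 (limma). PC differed by -0.21 with normexp, and by -0.27 at an unadjusted p of 0.082 with slide as a block (limma). With slide as a block the counts for the regulators were 0 higher and 4 lower (23.5%). For the pyruvate dehydrogenase list they were 1 higher (8.33%) and 5 lower (41.7%). Of all tested probes, 12.2% were higher and 11.1% lower in that setting.

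In the remaining lists the calls went both ways and none kept an adjusted p under 0.05 (limma), against 7.59% of all tested probes. At an unadjusted p under 0.05, 17.1% of all tested probes were higher and 14.2% lower. Of 17 citrate cycle genes, 2 were higher (11.8%) and 4 lower (23.5%) at an unadjusted p under 0.05. Among them was SUCLA2 (succinate-CoA ligase, -0.14), and the median difference was -0.003. Of 21 genes of the pentose phosphate pathway and other side branches, 3 were higher (14.3%) and 1 lower (4.76%). At the lowest p were PYGB (glycogen phosphorylase, -0.29, with the non-uniform spot of IL-17A replicate 1 left out) and PSAT1 (serine synthesis, 0.14). Of 16 other glycolysis genes, 1 was higher (6.25%) and 2 lower (12.5%). ADPGK (a glucokinase that uses ADP, -0.18) and ENO3 (the muscle enolase, 0.21) had the lowest p. With slide as a block SUCLA2 and ADPGK did not pass, at unadjusted p of 0.071 and 0.085 (limma), and with normexp PYGB differed by -0.19.

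**Figure D5:**
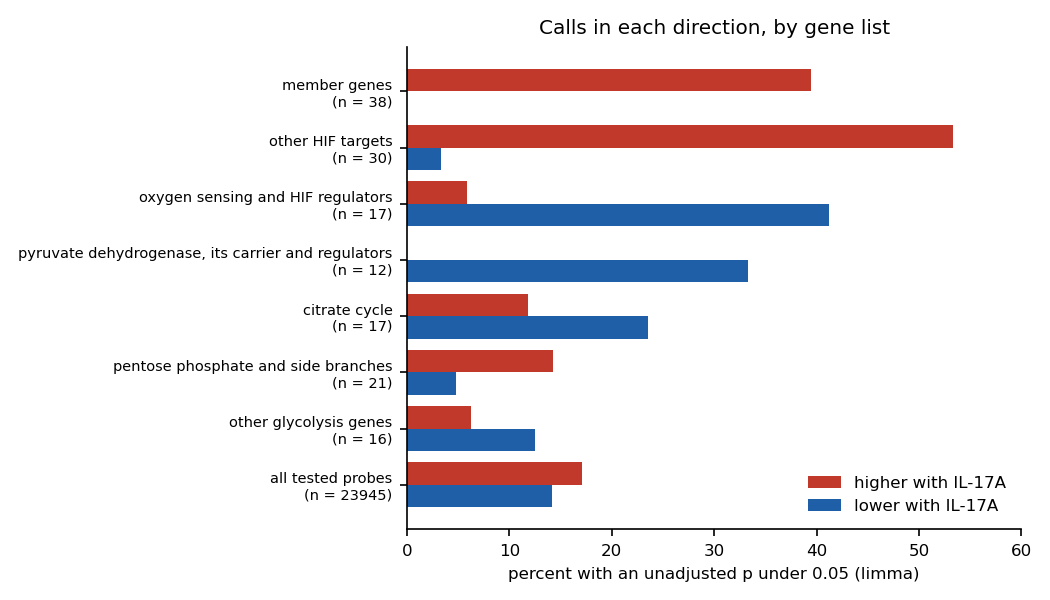
Percent of tested genes of each list with an unadjusted p under 0.05 by limma (x axis, starting at 0), higher with IL-17A in red and lower in blue, with the number tested beside each list (y axis). The members (39.5% higher, 0 lower) and other HIF targets (53.3% higher, SLC6A8 included) stand beside all tested probes (17.1% higher, 14.2% lower), and the HIF regulators have more genes lower than higher.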

How the data were processed

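SU-DHL-2 cells with IL-17A (3 arrays) and without (3 arrays) were grouped by their titles. Per the labels, the authors extracted spot intensities with Agilent Feature Extraction 11.0.1.1. The deposited intensity values are on a linear scale, background subtracted and not normalized between arrays, with median brightness and flags of 0 or 1 as further columns. A deposited table holds the authors' quantile normalized log2 values and served as an alternative. Control spots and 49 non-uniform values were left out, intensities below 1 were set to 1, and 43118 spots were averaged into 34127 probes and quantile normalized on the log2 scale. The 23945 probes (70.2%) detected on at least 3 of 6 arrays were tested with limma 3.58.1 (R 4.3.3), two-sided and without covariates, with Benjamini-Hochberg adjustment over all of them. For each gene the brightest tested probe, by mean signal, was used. A gene not well above background on any control has a fold change given as a lower bound, against each array's lowest signal that counted as above background (3.62 to 4.32). An exact permutation test of 3 arrays against 3 cannot give p below 0.1. The number of arrays limits the precision.

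Members with an adjusted p under 0.05 and the 5 with the highest and 5 with the lowest difference are given in full, and related genes when past both thresholds or among the 2 lowest p of a list. BHLHE40, HILPDA, PDK2, DLD, SLC2A4, SLC2A6 and SLC2A8 were added once their values had been seen. The members and lists were chosen with earlier results of these data known. The scripts were tested on simulated data. A few genes of the marker and related lists are not reported here.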

Additional observations from a re-analysis of the deposited data

How the results depend on the processing

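The number of members with an adjusted p under 0.05 was 6, where 7.59% of all tested probes passed. It became 3 with 75th percentile scaling (6.29% of all probes), 3 without a filter on detection (4.15%) and 3 with the methods' t-test (5.21%). With a variance trend it was 14 (16.1%). It was 0 without normalization (0.192%), with a replicate block (0.0167%) and with slide as a block (0.2%). Leaving out 1 array gave 0 to 2 (0.00835% to 4.11%). The number lower at an unadjusted p under 0.05 was 0, against 14.2% of all tested probes. It became 2 with 75th percentile scaling (18.2%). It became 1 with normexp (12.6%), no filter (11.1%), a variance trend (15.9%), the methods' t-test (12.9%) or slide as a block (11.1%). Without 1 array it was 0 to 1, with 1 without IL-17A replicate 1 (13.5%). The number higher was 15, against 17.1% of all tested probes. Over the settings it lay between 10 and 19, and the share of all probes between 11.3% and 18.3%. When 1 array was left out it was 10 to 15, and the share 11.8% to 17.3%. The median difference was 0.0575 with 75th percentile scaling, 0.0789 with normexp, 0.14 with slide as a block and 0.08 to 0.12 without 1 array. At a fold threshold of 1.2, 3 members and 15 related genes passed both thresholds. No share of all tested probes was counted at that fold, so neither count is read as a result about these genes. Related genes past both thresholds numbered 2 of 112, where 2.18% of all tested probes passed both. The number became 0 with normexp, 1 with the authors' log2 table and 1 with detection on all 6 arrays. It was 1 at a fold of 2, 7 with slide as a block and 1 to 4 without 1 array.

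Of 270 values of the 15 called members under alternatives, all were higher and 233 had p under 0.05. The groups did not overlap for any of the 15, so leaving out an array or blocking by slide could not change a sign. A variance trend and the methods' t-test leave the difference as it was. The shared direction is therefore no further support, and the 15 were picked by p on the same arrays. Signs changed only among members that did not pass. With 75th percentile scaling ENO1 became -0.0802, GAPDH -0.11, LDHA -0.0353, LDHB -0.0884 and PGAM1 -0.0203. Without normalization ENO1 became -0.0390, GAPDH -0.0668, LDHB -0.0472 and HIF1A 0.0023. With normexp EGLN3 became 0.0024 and BNIP3 0.0101. With slide as a block EPAS1 became 0.26 and PKM 0.0518, and with the mean of a gene's probes LDHB became -0.0112 and PFKFB3 0.11. Without 1 array, GAPDH ranged from -0.0283 to 0.0460, NDRG1 from -0.19 to 0.18, HK1 from -0.0263 to 0.0648, EGLN3 from -0.20 to 0.12 and EPAS1 from -0.35 to 0.13. The causes were not tested. The replicate numbers did not pair the arrays, with correlations of the same-numbered deviations of -0.0871, -0.0022 and -0.0466. Near the background, as for SLC2A3, EGLN3 and NDRG1, the spread of signals limits what could be detected.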

Other observations

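LDHC, the lactate dehydrogenase known from testis, is one of the other glycolysis genes and stood apart on a single array. It read 5.22 on IL-17A replicate 1 and 8.97 to 9.45 on the other 5 arrays, so that the difference of -1.62 had an unadjusted p of 0.181 (limma). LDHC was named after its values were seen.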
